A study of Zea mays with 18 samples.

Results

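The transcripts described here are the lignin and phenylpropanoid genes of maize, a list of 10 identifiers given by name that covers the route from phenylalanine to the lignin building blocks. The table of expression values holds 9 of the 10, among 76612 identifiers in all. The members with values are PAL GRMZM2G074604, C4H GRMZM2G147245, 4CL GRMZM2G075333, HCT GRMZM2G035584, C3H GRMZM2G138074, CCoAOMT GRMZM2G127948, CCR1 GRMZM2G131205, F5H GRMZM2G100158 and bm1 GRMZM5G844562. The remaining member, bm3 GRMZM2G196100, was not analysed here. RefSeq synonyms of the Zm-B73-REFERENCE-NAM-5.0 assembly matched the 9 identifiers and name an enzyme of the listed kind for PAL, 4CL, CCoAOMT, CCR1 and bm1, whereas the names C4H, HCT, C3H and F5H come from the list.

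Lignin is the phenolic polymer that stiffens and waterproofs the walls of vessels, fibers and other thickened plant cells. The general phenylpropanoid enzymes convert phenylalanine to an activated hydroxycinnamic acid, a second set adds hydroxyl and methyl groups to the ring, and the last enzymes reduce the side chain to monolignols, which laccases and peroxidases oxidize in the wall. In maize, lesions in monolignol genes give the brown midrib mutants, in which the leaf midrib is discolored and the lignin is altered.

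RNA was sequenced from ear inflorescence collected at the V16 stage and from ear collected at R1, which is silking, in field-grown plants of the Monsanto elite hybrid NN6306. In each tissue, 3 biological replicates came from control plants labelled non-transgenic, from event 1 and from event 2. Events 1 and 2 are independent maize transformation events in which the rice actin promoter, with its leader and intron, which is active in most tissues, drives Arabidopsis ATHB17. In maize the protein made is the truncated ATHB17Δ113, and the plasmid also carried the glyphosate tolerance marker CP4 EPSPS. The plants were from the 2012 field study, which was kept under standard agronomic practices with pesticides used as needed. No stress or other experimental treatment is described, and the labels do not say how many plants went into a replicate. The transgene was not checked here.

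The values are normalized counts, that is, read counts scaled per sample with DESeq by the authors. The 18 samples held 27293941 to 52655576 assigned reads. Replicate 1 of event 1 ear inflorescence was the most distant from its group, with a standard deviation of log2 differences of 0.974 to replicate 2 and 0.773 to replicate 3, which differed from each other by 0.485. In event 2 ear this value was 0.799 between replicates 1 and 2, 0.598 between replicates 2 and 3 and 0.533 between replicates 1 and 3, so that replicate 1 shares the highest value with replicate 2. The other replicate pairs had 0.384 to 0.576. Replicate 1 of event 1 ear inflorescence and replicate 2 of event 2 ear are called the doubted libraries in what follows. Of 6 inflorescence meristem genes, all were lower in control ear than in control ear inflorescence without overlap, but ba1, a marker of axillary meristem initiation, was the one called, with means of 13.2 and 251.7. The share of all transcripts lower in control ear in this way is not given. The meristem gene kn1 averaged 6383 in control ear and 7540 in control ear inflorescence and was not called, and ra1 had no count in any ear sample. In event 1 kn1 overlapped between the tissues, at 5195 to 5602 in ear and 4436 to 8410 in ear inflorescence. Of 3 floral genes, the carpel and ovule gene zag2 was called higher in ear in all 3 genotypes, whereas zag1 averaged 865 in control ear and 546 in control ear inflorescence and zmm2 4.38 and 9.53, neither called. In event 1 zmm2 averaged 2.52 in ear and 10.8 in ear inflorescence, also not called. The 2 endosperm genes measured were not called in any comparison.

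The first comparison asked how the pathway differed between the tissues in each genotype. Transcript levels of the lignin and phenylpropanoid genes were higher in ear than in ear inflorescence, with log2 fold changes above 0 for 9 of 9 members in control, event 1 and event 2. At the threshold of a raw p of 0.0001 in limma, 7 of 9 members were called higher in control, where 13.8% of all transcripts were called and 7.16% were called higher. In event 1, 7 of 9 were called higher (14.8% of all transcripts called, 8.46% higher), and in event 2, 6 of 9 (7.87% called, 5.18% higher), with no member called lower in any genotype. The 9 members had a median log2 fold change of 2.06 in control, of 2.09 in event 1 and of 1.68 in event 2, whereas the medians over transcripts that averaged 10 or more were 0.03, 0.04 and -0.03. For 8 of 9 members, all but F5H, all 9 ear samples lay above all 9 ear inflorescence samples, a pattern seen in 11.4% of all transcripts. In tissue samples, a larger share of lignifying cells and more transcript per cell cannot be told apart.

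**Figure D1:**
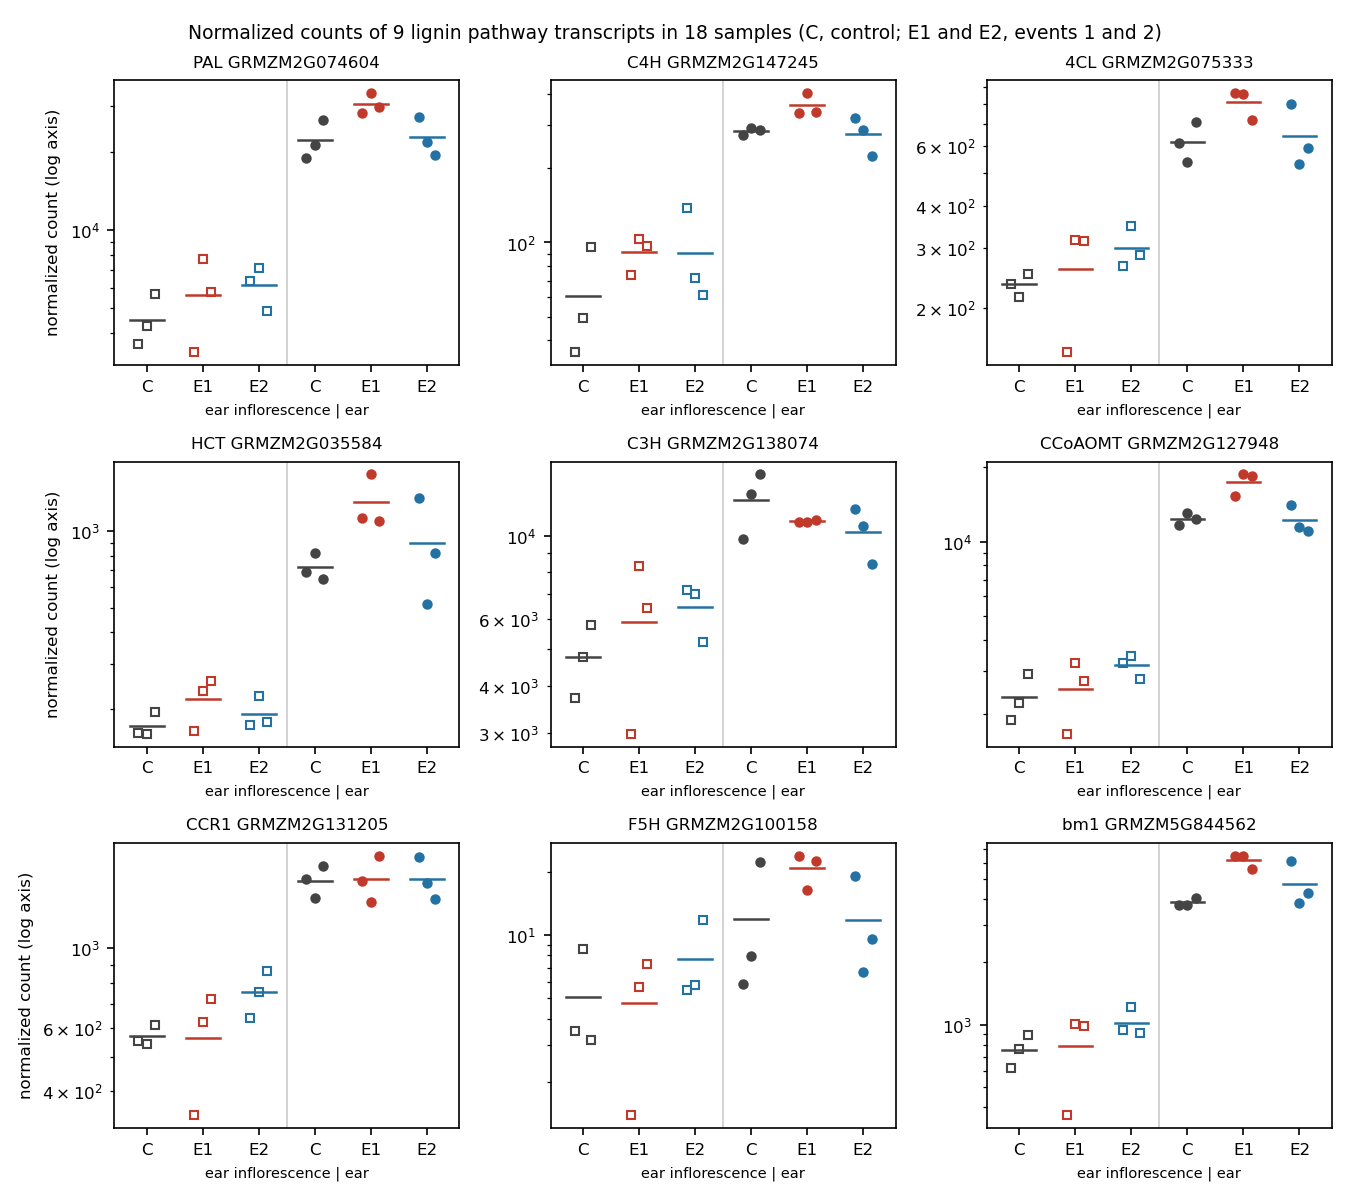
Normalized counts of the 9 members on log axes, 1 point per sample, with ear inflorescence (open squares) left and ear (filled circles) right of the gray line for control (C), event 1 (E1) and event 2 (E2); horizontal lines are the means of 3 samples. All ear points lie above all ear inflorescence points in each panel but that of F5H, and the lowest point of event 1 ear inflorescence is replicate 1.

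PAL, phenylalanine ammonia-lyase, removes the amino group of phenylalanine and so feeds the whole pathway. Its normalized counts in control ear inflorescence were 3635, 4252 and 5669, and those in control ear were 18960, 21368 and 26492. Event 1 gave 3380, 7772 and 5774 in ear inflorescence and 28204, 33805 and 29868 in ear. Event 2 gave 6381, 7176 and 4875 in ear inflorescence and 27278, 21894 and 19456 in ear. The lowest ear sample was thus well above the highest ear inflorescence sample, and the ear samples of event 1 were the 3 highest of all. The difference between tissues was 2.31 ± 0.27 (log2, SE) in control, 2.52 ± 0.27 in event 1 and 1.90 ± 0.27 in event 2, with adjusted p-values from limma of 3.52e-06, 8.66e-07 and 3.82e-05.

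C4H, the cytochrome P450 that hydroxylates cinnamic acid to p-coumaric acid, was much less abundant in reads, and its replicates were more spread in ear inflorescence. Control gave normalized counts of 35.8, 49.4 and 96.2 in ear inflorescence and 273, 292 and 287 in ear. Event 1 gave 73.5, 103 and 96.7 against 336, 405 and 340, and event 2 gave 138, 71.7 and 61.4 against 320, 287 and 224. The tissues did not overlap in any genotype, and the control ear samples were close together. The difference was 2.33 ± 0.30 (log2, SE) in control, 1.98 ± 0.30 in event 1 and 1.68 ± 0.30 in event 2, with limma adjusted p-values of 9.16e-06, 3.86e-05 and 0.000366. The call in event 2 was lost in 9 of 15 other settings, among them the omission of replicate 2 or 3 of event 2 ear inflorescence or of any 1 ear replicate, with a log2 fold change of 1.37 to 2.03 throughout.

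4CL, the ligase that joins p-coumaric acid to coenzyme A, had normalized counts of 236, 216 and 252 in control ear inflorescence and of 611, 539 and 706 in control ear. Event 1 gave 148, 317 and 314 in ear inflorescence and 862, 855 and 715 in ear. Event 2 gave 265, 348 and 286 in ear inflorescence and 799, 532 and 592 in ear. The tissues again did not overlap, although the smallest gap between them was narrower than for PAL. The difference was 1.39 ± 0.23 (log2, SE) in control and 1.72 ± 0.23 in event 1, both called, and 1.08 ± 0.23 in event 2, where the limma raw p of 0.000176 (adjusted p = 0.00197) missed the threshold. In control the call was lost in 6 of 15 settings, including the omission of any 1 control replicate other than ear replicate 2.

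HCT, which passes the p-coumaroyl group to shikimate and later takes it back, opens the part of the pathway where the ring is modified. Its normalized counts were 161, 160 and 195 in control ear inflorescence and 690, 821 and 648 in control ear. Event 1 gave 164, 235 and 259 in ear inflorescence and 1121, 1664 and 1093 in ear, and event 2 gave 173, 224 and 178 in ear inflorescence and 1343, 516 and 820 in ear. The event 2 ear samples were spread the most, with the lowest ear value in replicate 2 and a value above all but one other ear sample in replicate 1. The difference between tissues was 2.06 ± 0.26 (log2, SE) in control, 2.55 ± 0.26 in event 1 and 2.11 ± 0.26 in event 2, with limma adjusted p-values of 8.60e-06, 5.24e-07 and 8.57e-06.

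C3H, the cytochrome P450 that hydroxylates the shikimate ester, had the smallest difference between tissues of all members in event 1. In event 2 its difference was the smallest of the members other than F5H, and in control it was about that of 4CL. Control gave normalized counts of 3709, 4765 and 5809 in ear inflorescence and 9764, 12919 and 14508 in ear. Event 1 gave 2988, 8332 and 6445 against 10839, 10842 and 11013, and event 2 gave 7170, 7021 and 5219 against 11776, 10568 and 8405. No ear sample fell within the ear inflorescence range, but the highest ear inflorescence sample, event 1 replicate 2, was only just below the lowest ear sample, event 2 replicate 3. The differences of 1.39 ± 0.29 (log2, SE), 1.00 ± 0.29 and 0.66 ± 0.29 in control, event 1 and event 2 all missed the raw threshold, the control value with a raw p of 0.000132, and the limma adjusted p-values were 0.000901, 0.00966 and 0.107.

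CCoAOMT, the methyltransferase that turns caffeoyl-CoA into feruloyl-CoA, had the highest estimate of the tissue difference in control, within 1 standard error of those of bm1, C4H and PAL. Its normalized counts in control were 1898, 2230 and 2924 in ear inflorescence and 11683, 13096 and 12344 in ear. Event 1 gave 1667, 3233 and 2717 in ear inflorescence and 15342, 18671 and 18328 in ear. Event 2 gave 3218, 3453 and 2790 in ear inflorescence and 14066, 11495 and 11018 in ear. The 3 event 1 ear samples were the 3 highest. The difference was 2.42 ± 0.22 (log2, SE) in control, 2.83 ± 0.22 in event 1 and 1.95 ± 0.22 in event 2, with limma adjusted p-values of 2.30e-07, 2.02e-08 and 2.96e-06. A read that mapped to several transcripts was counted on each, so reads shared with CCOAOMT2 GRMZM2G099363, a close relative in the same table, cannot be assigned to either.

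CCR1, cinnamoyl-CoA reductase, catalyzes the first step committed to monolignols by forming the aldehydes. Normalized counts were 552, 542 and 614 in control ear inflorescence and 1557, 1381 and 1696 in control ear. Event 1 gave 343, 623 and 722 against 1537, 1348 and 1809, and event 2 gave 639, 759 and 867 against 1800, 1517 and 1370. The tissues did not overlap, and the ear levels of the 3 genotypes covered nearly the same range. The difference was 1.44 ± 0.21 (log2, SE) in control, 1.53 ± 0.21 in event 1 and 1.05 ± 0.21 in event 2, with limma adjusted p-values of 3.83e-05, 1.63e-05 and 0.0012. In event 2 the raw p of 9.29e-05 was just inside the threshold, and the call was lost in 10 of 15 settings, including the omission of any 1 replicate of event 2.

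F5H, the cytochrome P450 that leads to syringyl units, was barely sampled, with 2 to 21 reads per library. Normalized counts were 3.51, 8.60 and 3.18 in control ear inflorescence and 5.86, 7.92 and 22.2 in control ear. Event 1 gave 1.39, 5.69 and 7.25 against 23.8, 16.4 and 22.5, and event 2 gave 5.51, 5.78 and 11.8 against 19.0, 6.71 and 9.60. The tissues overlapped in control and in event 2 and were separate in event 1, as were the tissues of 20.5% of all transcripts in that direction. The differences of 0.99 ± 0.57 (log2, SE), 2.09 ± 0.57 and 0.51 ± 0.57 were not called in any genotype (limma adjusted p = 0.193, 0.00679 and 0.581). With edgeR, F5H was called in event 1. These fold changes are on the log2(normalized count + 1) scale, which understates the change of a transcript this low.

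bm1, brown midrib1, encodes a cinnamyl alcohol dehydrogenase, the enzyme that reduces the aldehydes to monolignols. Normalized counts were 616, 761 and 889 in control ear inflorescence and 3751, 3773 and 4083 in control ear. Event 1 gave 365, 1006 and 989 in ear inflorescence and 6479, 6474 and 5633 in ear, and event 2 gave 942, 1209 and 908 in ear inflorescence and 6152, 3828 and 4307 in ear. Every ear sample was more than 3 times the highest ear inflorescence sample. The difference was 2.37 ± 0.28 (log2, SE) in control, 3.11 ± 0.28 in event 1 and 2.20 ± 0.28 in event 2, with limma adjusted p-values of 4.53e-06, 1.29e-07 and 1.30e-05. The event 1 value was the largest of any member in any genotype.

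**Figure D2:**
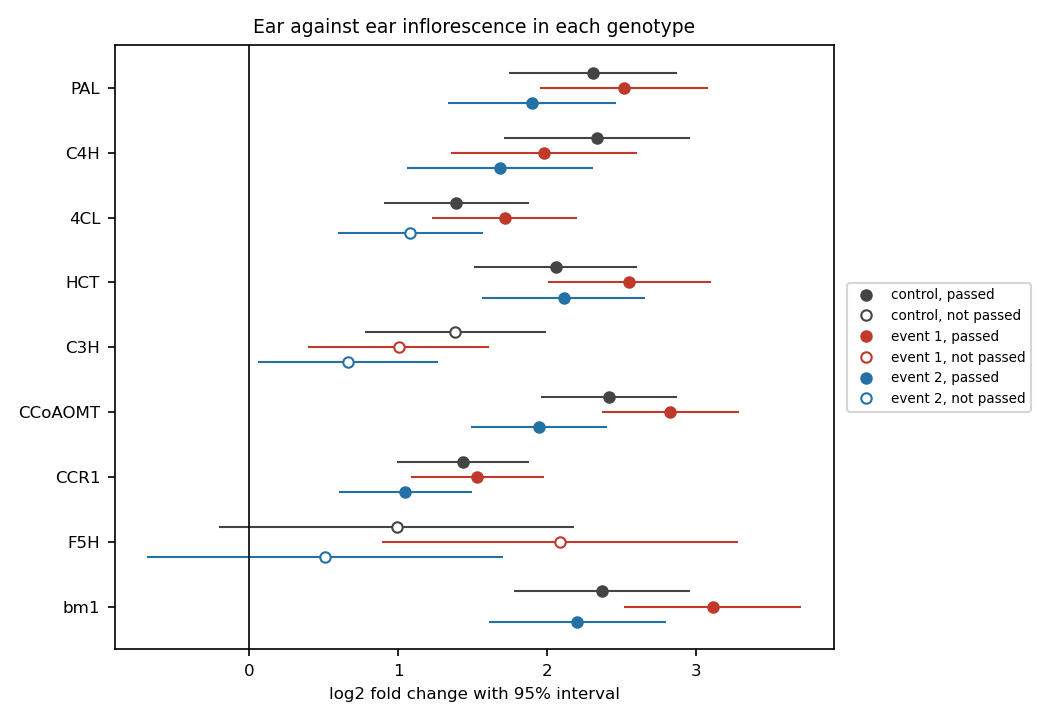
Log2 fold change of each member, ear against ear inflorescence, in control, event 1 and event 2, with 95% intervals from limma; filled points passed a raw p of 0.0001. All 27 points lie right of 0, and the open points are C3H and F5H in each genotype and 4CL in event 2.

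Another scaling shifted the fold changes of all transcripts. With samples scaled to their total assigned reads, the median over transcripts averaging 10 or more became -0.47 in control, -0.52 in event 1 and -0.35 in event 2. In control the split of all called transcripts changed from 5486 higher and 5096 lower in ear to 3003 higher and 8139 lower. The members had log2 fold changes above 0 for 9 of 9 in each genotype under that scaling too, with medians of 1.55, 1.62 and 1.37, and 7, 6 and 4 of them were called. Of all 76612 transcripts, 3003, 3485 and 2756 were called higher under that scaling.

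The second comparison asked whether ATHB17Δ113 expression was accompanied by a change in these transcripts. No member was called in either event in either tissue with limma. In ear inflorescence, 1 member had an unadjusted p under 0.05 in event 1 and 0 in event 2, and in ear 3 in event 1 and 0 in event 2. Of all transcripts, 2.79% in event 1 and 4.36% in event 2 had such a p in ear inflorescence, and 6.76% and 3.82% in ear. DESeq2 called 0 members in these comparisons, and edgeR called 1, in event 1 ear, where edgeR called 0.604% of all transcripts. With limma, 0.0574% of all transcripts were called in event 1 and 0.0666% in event 2 in ear inflorescence, and 0.128% and 0.0444% in ear. Each tissue's comparisons share the same 3 control samples, so the values of the 2 events are not independent.

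In ear, event 1 lay above control for 8 of 9 members, with a median log2 fold change of 0.47 against 0.03 for transcripts with a mean of at least 10. HCT had the smallest p, at 0.82 ± 0.26 (log2, SE; limma adjusted p = 0.382), followed by bm1 at 0.68 ± 0.28 (adjusted p = 0.624) and CCoAOMT at 0.49 ± 0.22 (adjusted p = 0.684). These 3 were the members with a raw p under 0.05. In PAL, C4H, 4CL, HCT, CCoAOMT and bm1 each event 1 ear sample exceeded each control ear sample, that is in 6 of 9 members, and 8.15% of all transcripts did the same. CCR1 differed by 0.01, with a 95% interval from -0.43 to 0.46, and C3H was the member below control, at -0.17, with an interval from -0.77 to 0.44. Under scaling to total reads and under quantile normalization CCR1 was slightly below control as well.

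In edgeR's quasi-likelihood test on the recovered reads, HCT was called in event 1 ear, with a log2 fold change of 0.84, a raw p of 7.42e-05 and an adjusted p of 0.0128. Over all settings the adjusted p of HCT ranged from 0.0128 to 0.877. The summed counts of 4 genes active in green tissue (pep1, ppdk1, me3 and ssu1) were 5928 to 6239 in event 1 ear and 4839 to 5269 in control ear, and those of 4 secondary wall genes (cesa10, cesa11, cesa12 and bk2) were 2856 to 3095 and 2475 to 2708. Neither sum overlapped between the groups, but none of the 4 green tissue or 4 secondary wall genes was called. In event 1 ear and control ear, me3 averaged 2274 and 2639, and cesa10 averaged 2292 and 2280. The part of these genes' tissues in the values of the members was not tested.

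In event 2 ear the members were spread around the control level. Log2 fold changes were above 0 for 6 of 9 members, with a median of 0.04 against -0.01 for transcripts with a mean of at least 10. They ranged from -0.27 for C3H to 0.27 for bm1, and no raw p was under 0.05. The 95% intervals of event 2 ear reached 0.60 for PAL, 0.76 for HCT and 0.86 for bm1, so differences of that size were not separated from 0. With the doubted libraries left out, one of them event 2 ear replicate 2, 7 of 9 members were above control, HCT at 0.55 (limma adjusted p = 0.76), and none was called. In that setting 2 members had a raw p under 0.05, as did 5.94% of all transcripts. The HCT value then rested on normalized counts of 1343 in replicate 1 and 820 in replicate 3.

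In ear inflorescence, event 2 was above control for 9 of 9 members, with a median of 0.44 against -0.01 for transcripts with a mean of at least 10, and a range from 0.15 for HCT to 0.60 for C4H. All of these 9 values had a raw p above 0.05 and adjusted p-values of 0.838 or more, and 4CL, CCR1 and bm1 were higher in each event 2 sample than in each control sample, a pattern seen in 5.26% of all transcripts. The direction was the same under both other scalings, where the smallest value, that of HCT, was 0.04 with scaling to total reads. A raw p under 0.05 was reached by 4 members with edgeR and by 1 with DESeq2, where 6.04% and 2.46% of all transcripts had such a p. It was reached by 1 each with quantile normalization and scaling to total reads (3175 and 3433 of 76612 transcripts). With the groups compared fitted alone it was reached by 2 members (7047 transcripts), and on leaving out 1 replicate by 0 to 2 (2609 to 5697 transcripts). Without the doubted libraries, where 10.6% of all transcripts had such a p, it was reached by 5 members. None of these member values was called.

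Event 1 ear inflorescence was above control for 6 of 9 members, with a median of 0.08, and CCR1, F5H and bm1 were slightly below. C4H had the largest value, at 0.69 ± 0.30 (log2, SE; limma adjusted p = 1.0). This count rested on replicate 1, the library with the lowest level of 7 of the 9 members in that tissue. With the doubted libraries left out, 9 of 9 members were above control, with a median of 0.43, a range from 0.24 to 0.84 and a raw p under 0.05 for 6 members, and none was called. Of all transcripts, 14.8% had a raw p under 0.05 in that setting.

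**Figure D3:**
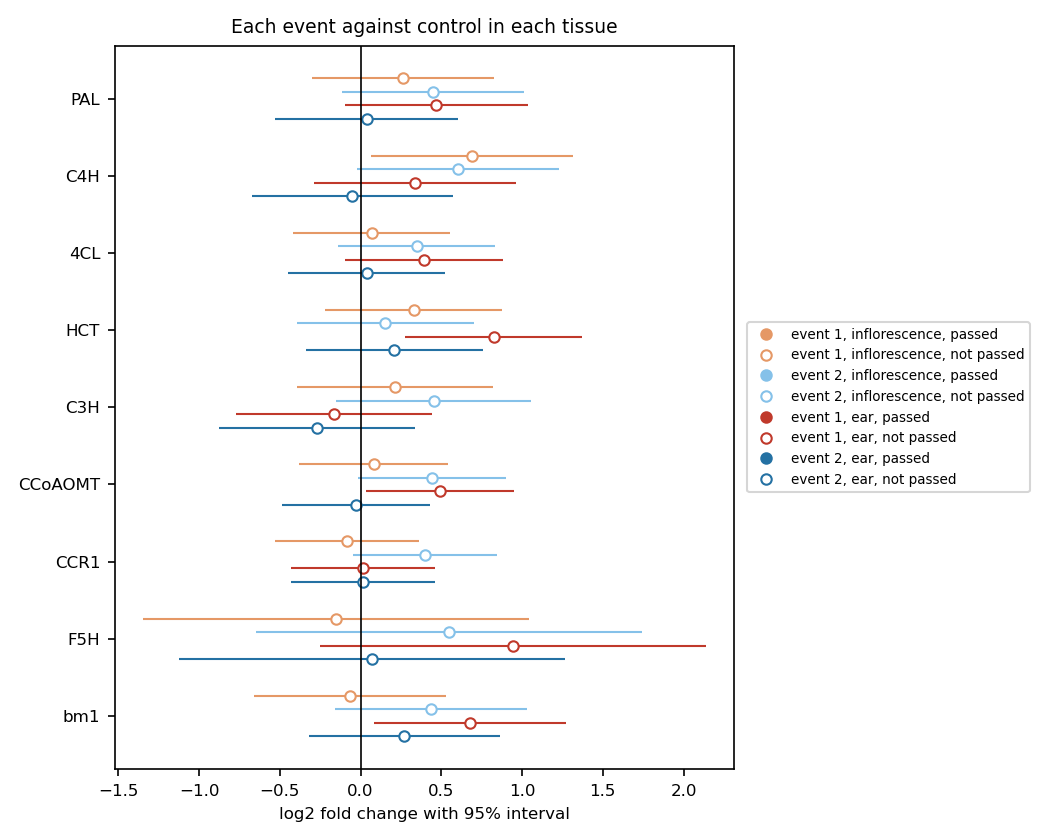
Log2 fold change of each member, event against control, in ear inflorescence (light colors) and ear (dark colors), with 95% intervals from limma; open points did not pass a raw p of 0.0001, and no point passed. The widest intervals are those of F5H, and HCT, bm1 and CCoAOMT in event 1 ear and C4H in event 1 ear inflorescence have intervals that do not reach 0.

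The events were also compared with each other, and the effects between tissues. No member was called between event 1 and event 2 in ear inflorescence (0.064% of all transcripts called) or in ear (0.0548% called). Event 1 ear was higher than event 2 ear for PAL, C4H and CCoAOMT in each of 3 samples against each of 3, as 5.86% of all transcripts were, and CCoAOMT and HCT had raw p-values of 0.0287 and 0.0298 (limma adjusted p = 0.893 for both). The difference of an event's effect between ear and ear inflorescence was tested as an interaction, with 0.0196% of all transcripts called for event 1 and 0.0117% for event 2, and no member was called. The interaction values were above 0 for 7 of 9 members in event 1, with a median of 0.33, and for 1 of 9 in event 2, with a median of -0.41. No raw p among them was under 0.05, the smallest being 0.0791 for bm1 in event 1. Without the doubted libraries, 4 of 9 were above 0 in event 1, with a median of -0.04, and 1 of 9 in event 2. In that setting 1 member had a raw p under 0.05 in each event's interaction, and none was called. Of all transcripts, 12.1% had such a p for event 1 and 8.24% for event 2.

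Within a tissue most pairs of members were positively correlated from sample to sample, 34 of 36 in ear and 35 of 36 in ear inflorescence. Across the 9 ear samples, which include the 3 genotypes, the 36 pairs of members had correlations of log2 values with a median of 0.68, from -0.03 to 0.91. Across the 9 ear inflorescence samples the median was 0.70, from -0.03 to 0.98. These are descriptions without a test, since the members share libraries, scale factors and genotype groups. The ear inflorescence samples include event 1 replicate 1, a doubted library with the lowest level of most members. Correlations without that library, and between pairs of other transcripts, were not computed. In ear, C3H and CCR1 departed from the rest, with a median correlation to the other members of 0.27 and 0.25, against 0.62 to 0.84 for the other 7. In ear inflorescence C4H had the lowest median, at 0.44, and bm1 the highest, at 0.88.

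The level of the whole list per sample was taken as the mean of the 9 members' log2 values, each standardized over the 9 samples of its tissue. In ear the 3 event 1 samples gave 0.636, 0.878 and 0.753, and the control samples gave -0.807, -0.515 and 0.173. Event 2 ear gave 0.689, -0.805 and -1.002, so that its replicate 1 lay within the event 1 range, replicate 2 beside the lowest control sample and replicate 3 below all other ear samples. In ear inflorescence the lowest level was -1.61 in event 1 replicate 1, and the other event samples lay between 0.276 and 0.779, above the 3 control samples at -0.952, -0.468 and 0.11. The sum of the 4 secondary wall genes was lowest in the same event 1 replicate (1167, against 1433 to 1918 in the other ear inflorescence samples), and so was that of the 4 green tissue genes (1823 against 2382 to 3182). The sums of the 6 meristem genes (6413 against 10040 to 20314) and of the 3 floral genes (3840 against 4078 to 9469) were lowest there as well. Their part in the low level of the members was not tested.

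**Figure D4:**
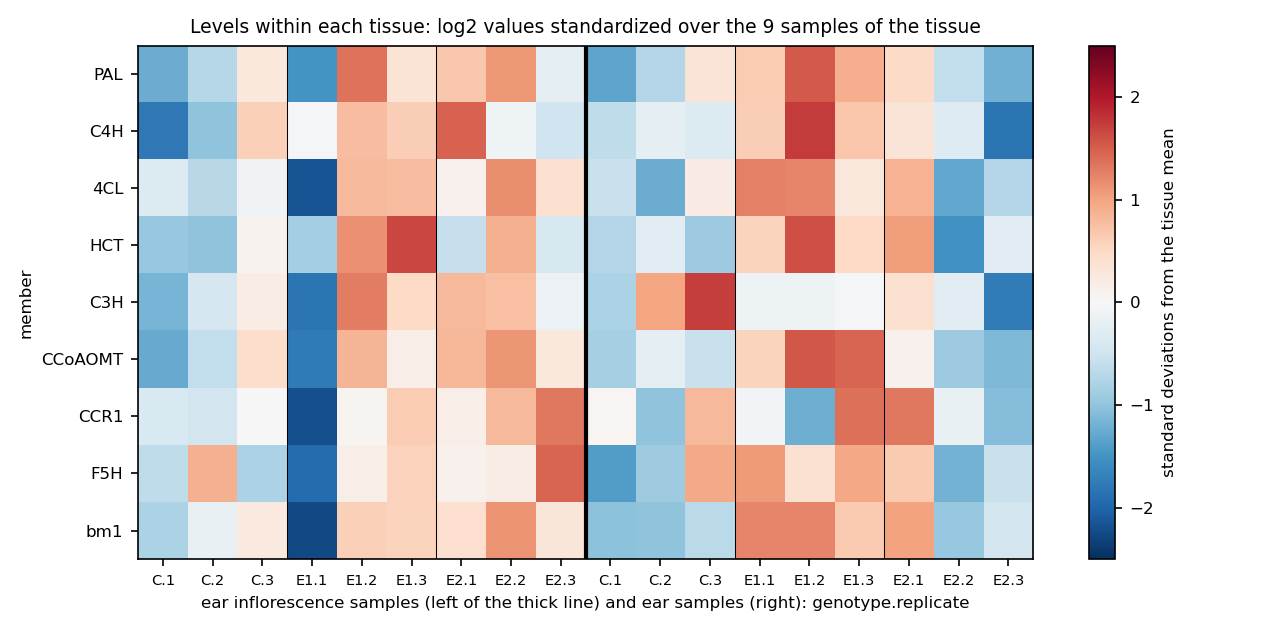
Log2 value of each member in each sample, standardized over the 9 samples of the tissue and shown as a color from blue (below the tissue mean) to red (above), with ear inflorescence left and ear right of the thick line; columns are genotype and replicate. The column of event 1 ear inflorescence replicate 1 is blue for nearly all members, and in ear the event 1 columns are red except for C3H and, in part, CCR1.

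The transcripts outside the list whose pattern was most like that of the members were found by the smaller of 2 correlations with this mean level, over 9 ear samples and over 9 ear inflorescence samples. These are the highest values of a search over the 39715 transcripts averaging 10 or more, less the members, and describe without a test. GRMZM2G700188 came first, with 0.98 in ear and 0.96 in ear inflorescence. GRMZM2G159908 followed with 0.95 in both tissues, and GRMZM5G872068, the glutamine synthetase gene gln1-3 (also named gln4), with 0.94 and 0.97. Glutamine synthetase takes up ammonium, the product that ammonia-lyases release, but a link between this transcript and the members was not tested. The log2 fold change of the glutamine synthetase transcript between ear inflorescence and ear was 1.78 (control), 2.18 (event 1) and 1.428 (event 2). In the same order, it was 2.57, 2.80 and 2.33 for GRMZM2G700188 and 1.47, 1.99 and 0.94 for GRMZM2G159908.

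Other genes of the pathway were taken by RefSeq name, which gave 16 identifiers: 12 of laccases, which oxidize monolignols in the wall, and cad1, CAOMT, ccr2 and CCOAOMT2. The laccase pair annotated lac4, GRMZM2G072780 and GRMZM2G164467, had identical reads in every sample and was taken once, which leaves 15 measurements, 11 of them laccases. Between ear and ear inflorescence, 4 of 15 were called higher in control, 6 in event 1 and 5 in event 2, and none was called lower in ear. Of all transcripts, 7.16%, 8.46% and 5.18% were called higher. The median log2 fold change of the 15 was 0.67, 1.93 and 1.16. Among the laccases the counts called were 1, 3 and 2 of 11, and several of these transcripts were near 0 counts. The laccase lac5, called in event 1, averaged 0.78 in event 1 ear inflorescence and 11.0 in event 1 ear, against 9.21 and 13.1 in control.

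CCOAOMT2, a second caffeoyl-CoA methyltransferase, had a mean of 733 ± 367 (SD, n = 3) in control ear inflorescence and 4291 ± 282 in control ear, a log2 fold change of 2.66. CAOMT GRMZM5G814904, annotated as caffeic acid methyltransferase, had 445 ± 90.1 and 2034 ± 161, a log2 fold change of 2.21, and cad1 GRMZM2G046070, a second alcohol dehydrogenase, had 1509 ± 260 and 3825 ± 61.5, a log2 fold change of 1.36. All 3 were called higher in ear in each genotype, with limma adjusted p-values in control of 1.01e-06, 5.39e-06 and 1.50e-05. By contrast, ccr2 GRMZM2G131836, a second cinnamoyl-CoA reductase, gave 39.2 ± 12.6 and 54.0 ± 5.43, and its difference of 0.50 in control was not called (limma adjusted p = 0.327).

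Laccase-13 GRMZM5G814718 was called higher in ear in each genotype and in event 1 ear against control ear. It had at most 1 read in any ear inflorescence library, so no fold between the tissues is given. In ear its normalized count was 26.4 to 38.7 in control, 136 to 217 in event 1 and 50.3 to 158 in event 2. Neither event overlapped control ear. In event 1 ear 8.15% of all transcripts lay above control ear in this way, and the share for event 2 ear is not given. The event 1 difference was 2.42 ± 0.46 (log2, SE; limma adjusted p = 0.0568). CAOMT and CCOAOMT2 were also higher in each event 1 ear sample than in each control ear sample, by 0.81 ± 0.27 and 0.81 ± 0.28 (log2, SE), and were not called (limma adjusted p = 0.407 and 0.425). Another laccase, lac5 GRMZM2G367668, was called lower in event 1 ear inflorescence than in control, at 0 to 1.39 against 6.36 to 11.46 (limma adjusted p = 0.137), and was singled out after its values were seen. Its counts were at most 2 reads per library in event 1 and at most 16 in control.

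**Figure D5:**
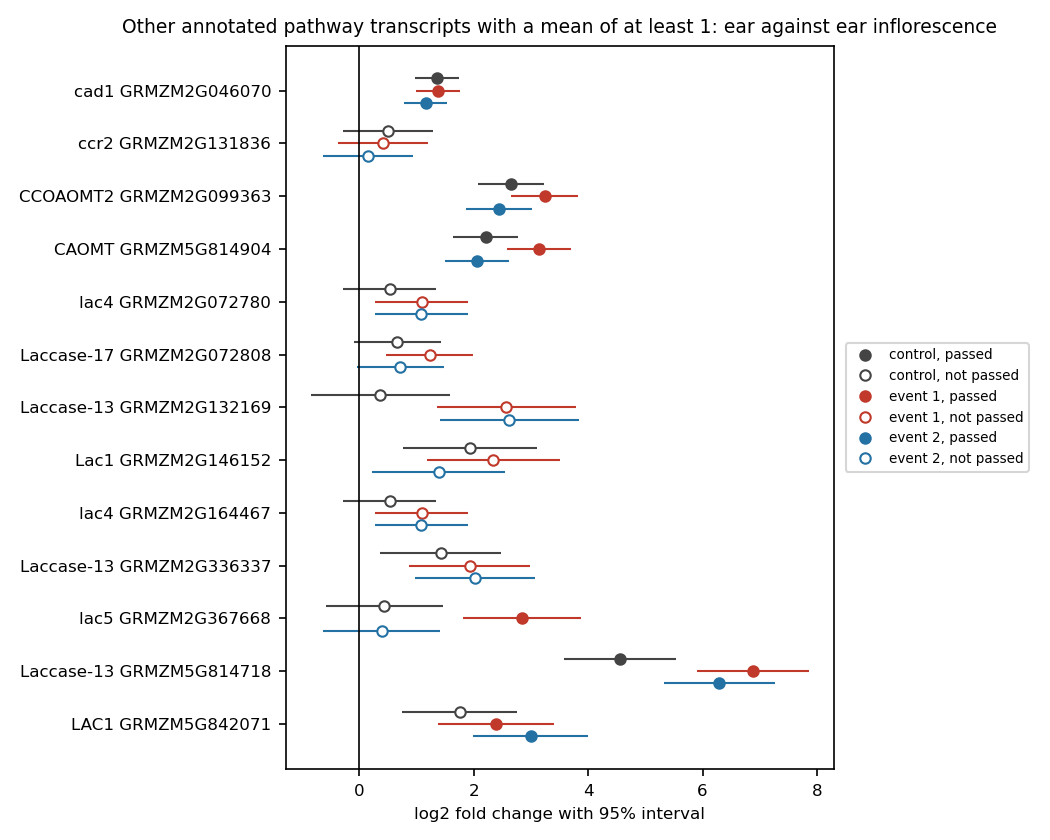
Log2 fold change between ear and ear inflorescence of the other annotated pathway transcripts averaging 1 or more, by genotype, with 95% intervals from limma; filled points passed a raw p of 0.0001. Values are on the log2(normalized count + 1) scale, and those of Laccase-13 GRMZM5G814718 rest on ear inflorescence libraries with at most 1 read. CCOAOMT2, CAOMT and cad1 passed in each genotype and ccr2 in none.

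Of the regulators, myb31, which in maize represses a lignin methyltransferase gene, followed the members between tissues. Its mean was 30.02 ± 8.97 (SD, n = 3) in control ear inflorescence and 152 ± 19.0 in control ear, and the log2 fold changes of 2.34 (control), 2.33 (event 1) and 2.19 (event 2) were all called. Its relative myb42 had 5.82 in control ear inflorescence and 9.11 in control ear and was not called in any genotype. No regulator was called in any event comparison.

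Secondary wall cellulose genes showed smaller tissue differences than most members in control. The cellulose synthase transcripts cesa10, cesa11 and cesa12 were higher in ear by 0.78, 0.94 and 0.98 on the log2 scale in control, without overlap, and none of the 4 secondary wall genes was called there. In event 1, cesa11, cesa12 and bk2, a COBRA-like gene of stalk strength, were called higher in ear, and in event 2 only cesa11 was. In ear, bk2 had 2.64 to 8.45 normalized counts in control and 58.2 to 136 in event 1 (log2 fold change 3.84, limma adjusted p = 0.205, not called). Of the 4 green tissue genes, pep1, ppdk1 and ssu1 were called higher in ear in each genotype, and the part of green or wall-forming tissue in the ear values of the members was not tested.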

How the data were processed

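RNA-seq of 18 samples, 3 per genotype and tissue, was analysed. Reads of 50 bases were called with CASAVA 1.8.2 and mapped with Bowtie 0.12.8 to the B73 transcriptome (version 5a). A read mapping to more than 10 transcripts was dropped, and any other read was counted on each of its transcripts, so close relatives can share reads; strandedness was not given. The deposited signal is the count scaled per sample by the authors with DESeq (version not given in the sources used here). Dividing by the scale factor gave whole reads for 559741 of 559741 values up to 50, within 0.01. Values are not per length, so levels are not compared between genes. No sample or column was left out.

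The test was limma 3.58.1 (R 4.3.3), with moderated variances and a mean trend, on log2(normalized signal + 1), with 6 group means, 18 samples and 76612 identifiers. A call is a raw p at or below 0.0001, the study's threshold; p-values were adjusted by Benjamini and Hochberg's method across the 76612 identifiers, and intervals are 95%. Each p-value sets a difference of group means against the spread between these replicates, pooled over the 6 groups and moderated across transcripts. An exact permutation test of 3 against 3 samples cannot go below 0.1 and was not used. The code was also run on simulated counts with the same spread setting for every transcript and no deviant library. No result here rests on that run.

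The members, gene lists and tests were chosen with earlier results of these data known. All members are named. Of the other pathway genes, those named are, per enzyme class, the called transcript with the smallest p in control and any called in an event comparison, with a mean of at least 10; ccr2, lac4 and lac5 are additions. RefSeq names matched 18629 identifiers. The symbols myb31, cesa11 and zmm2 each had 2 matches, of which only the first was measured. Alternatives were a pseudocount of 0.1, a mean of at least 10, the groups compared alone, a replicate block, quantile normalization, scaling to total assigned reads, edgeR 4.0.16 (quasi-likelihood, TMM), DESeq2 1.42.0 (Wald) and leaving out each replicate. Leaving out both doubted libraries (event 1 ear inflorescence replicate 1 and event 2 ear replicate 2) was added after seeing the data. Figures were drawn with matplotlib 3.10.9.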

Additional observations from a re-analysis of the deposited data

How the results depend on the processing

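The log2 fold changes of the 9 members between ear and ear inflorescence were above 0 in all settings run, 405 values in all, of which 39 lost the call and 8 gained it. The members called in control, event 1 and event 2, 7, 7 and 6 in the report, were 4, 1 and 1 when the groups compared were fitted alone, with 6 samples in place of 18, and the transcripts called in all went from 10582, 11318 and 6033 to 5253, 1401 and 1029. Members called were 8, 9 and 7 with edgeR (15925, 16156 and 10085 transcripts in all) and 8, 7 and 7 with DESeq2 (14285, 14500 and 8559 transcripts). Quantile normalization gave 7, 7 and 4 members (9086, 10057 and 5358 transcripts). The fit without the doubted libraries gave 8, 6 and 6 members (13784, 8697 and 8956 transcripts). Leaving out 1 replicate gave 6 to 7, 6 to 7 and 4 to 5 members, with 5171 to 7160, 7056 to 11610 and 3598 to 6015 transcripts called in all. In the event comparisons and interactions, no member was called in the settings run, with the exception of 1 member, HCT in event 1 ear with edgeR. In 74 of 1188 values the sign changed, with no call either way. The transcripts called in all in the 4 comparisons with control were 34 to 98 with limma, 67 to 463 with edgeR and 6 to 42 with a mean of at least 10, and with scaling to total reads event 1 ear went from 63 higher and 35 lower to 44 higher and 57 lower.

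The replicate numbers carry no stated pairing. Same-numbered samples of different groups had a median correlation of deviations of -0.00188 (from -0.515 to 0.253, 45 pairs), against -0.00736 for different numbers. With the number as a replicate block, 7, 7 and 6 members were called between the tissues (9537, 10279 and 5513 transcripts in all) and 0 elsewhere.

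With 3 samples a group, the 95% intervals of event effects spanned about 0.9 to 1.3 on the log2 scale for the members other than F5H. Growth stage differs between the tissues and cannot be told apart from tissue.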
